A study of Mus musculus with 72 samples.

Results

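Gene expression in the liver of control mice was set against 4 other organs of mice given the same injection. The liver group held 4 libraries and the lung, kidney, spleen and thymus groups 4 each, so that 20 of the 72 libraries of the series were compared. They were chosen by organ and by the injected circuit, a rule that uses no expression value. The choice of this comparison and of the gene lists was made with earlier results of these data known. All 5 groups were tissue of EGFR DEL19 transgenic mice given doxycycline for 25 days, whose lung tumours had been checked for by micro-CT. Each mouse had then been injected intravenously with 10 mg/kg of the CMV-scrR circuit every 2 days, 7 injections in all, and tissue was taken on day 14. CMV-scrR is a DNA circuit whose CMV promoter drives a scrambled small RNA, and it served as the control for 2 circuits that carry an siRNA against EGFR. No group was untreated or wild type, so each organ carries the transgene, the doxycycline and the circuit. The labels give neither age nor sex, do not name the promoter or cells that drive the transgene, and do not say that the libraries of a group came from separate animals. P-values therefore measure the spread between these samples, which may be technical.

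The liver makes most of the proteins of blood plasma, turns ammonia into urea, keeps blood glucose up between meals, makes bile acids from cholesterol and modifies drugs and steroids so that they can leave the body. Hepatocytes do most of this work and divide it by zone, periportal cells near the incoming blood and pericentral cells near the central vein. Kupffer cells (the resident macrophages), sinusoidal endothelium, stellate cells and the cholangiocytes of the bile ducts make up much of the rest. The kidney tubule shares several of these metabolic tasks, among them gluconeogenesis and part of the urea cycle enzymes.

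The values were RNA-seq signals per gene that the authors had normalized in a separate table for each organ. Every column was rescaled here to the same total, leaving out the 13 mitochondrial (mt-) genes, and the rescaled unit is called CPM. Because organ and table coincide, effects of the organ and of the table cannot be told apart. Depth, estimated from the step between low values, was 19.9 M to 20.8 M counts (M, mega) in liver and 16.5 M to 20.8 M in the other organs. Mitochondrial genes held 5.33% to 5.70% of the liver total, against 11.7% to 12.6% in kidney and 1.59% to 1.98% in lung, spleen and thymus. The tissue labels were checked against defining markers. Alb, for albumin of hepatocytes, was the most abundant liver gene per length, with a lowest liver value of 52252 CPM. Sftpc of alveolar cells had 0.0490 to 0.339 CPM in liver against 9666 to 12856 in lung, Slc34a1 of the proximal tubule 0 to 0.186 in liver against 8289 to 10365 in kidney, and Rag1 of thymocytes 0 to 0.0521 in liver against 3372 to 4331 in thymus. Some libraries held transcripts of another tissue. Spleen replicate 1 had more Alb (84.1, 21.1, 1.63 and 6.49 CPM in spleen replicates 1 to 4) and lung replicate 1 more Rag1 (69.2, 7.66, 1.29 and 5.99 CPM), and the part of such material in the results was not tested. Without spleen replicate 1 there were 748 genes higher and 1571 lower in liver than in every other organ, and without lung replicate 1 there were 744 and 1554, against 750 and 1563 with all libraries.

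A few genes made up a large share of liver RNA. The 10 most abundant genes held 15.5% to 19.8% of the total in liver, against 2.84% to 9.04% in the 16 other libraries. Between 231 and 317 genes were enough to hold 50% of the liver total, against 892 to 1357 genes in the other organs. Between 12929 and 13145 genes reached 1 CPM in liver, against 13832 to 14914 elsewhere. Over all genes tested, the median log2 difference of liver from the other organ was -0.84 for lung, -0.52 for kidney, -0.80 for spleen and -0.89 for thymus. Median-of-ratios scaling, which sets the middle gene of the libraries equal, moved these medians up by 0.74, 0.55, 0.74 and 0.84, and quantile normalization, which gives every library the same distribution, by 0.75, 0.51, 0.59 and 0.69. In bulk tissue, fewer cells of a type and less RNA per cell cannot be told apart.

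Differences are on the log2(CPM + 1) scale, liver minus the other organ, so a pseudocount of 1 CPM understates the change of low genes. Each gene was tested with limma over the 20 libraries, and passed with a Benjamini-Hochberg adjusted p under 0.05 and a difference of at least 1 in either direction. Of 16758 genes tested, 1596 (9.52%) were higher and 7404 (44.2%) lower in liver than in lung. Against kidney 1451 genes (8.66%) were higher and 4687 (28.0%) lower, against spleen 2047 (12.2%) and 7312 (43.6%), and against thymus 2336 (13.9%) and 7799 (46.5%). Under median-of-ratios scaling the counts were 2973 higher and 3776 lower for lung, 2583 and 2477 for kidney, 3719 and 3377 for spleen, and 4350 and 3862 for thymus. Higher genes were thus 17.7% of the calls for lung, 23.6% for kidney, 21.9% for spleen and 23.0% for thymus, and 44.1%, 51.0%, 52.4% and 53.0% under that scaling. Kidney had the fewest differences under either one. All 4 comparisons use the same liver libraries.

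**Figure D1:**
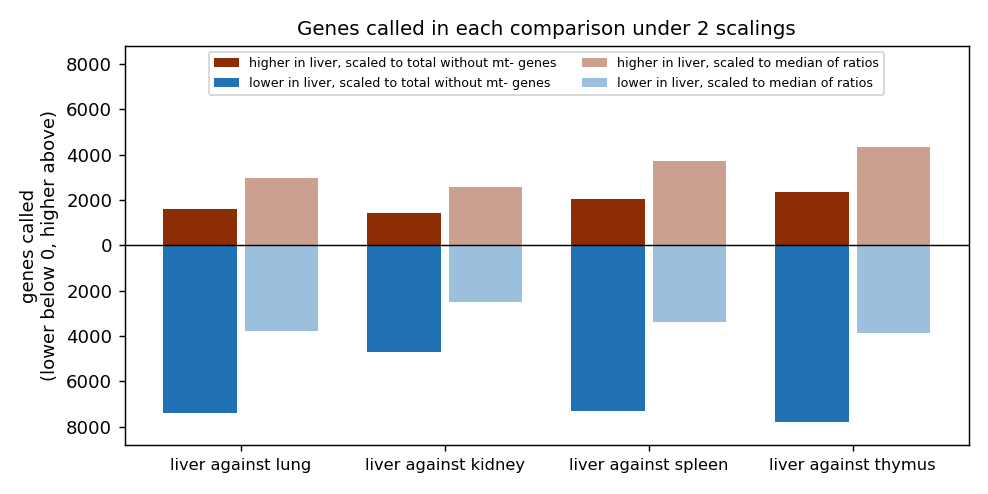
Genes called higher (above 0) and lower (below 0) in liver against each organ, on the y axis, with 4 liver and 4 other libraries behind each pair of bars. Dark bars use the total without mt- genes (for lung, 1596 higher and 7404 lower) and pale bars the median of ratios (2973 and 3776), under which the 2 directions are closer in number.

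To be called liver-high or liver-low, a gene had to pass against each of the 4 organs, by the largest of its 4 p-values adjusted over all genes. Liver-high genes numbered 750 (4.48% of those tested) and liver-low genes 1563 (9.33%). In 740 of the 750, all 4 liver libraries lay above all 16 others, and in 1532 of the 1563 all 4 lay below. The genes were called from these same libraries, so little overlap follows largely from the choice, and the share over all genes was not computed. The liver-high genes together held 48.4% ± 1.98 (SD, n = 4) of the liver total, against 2.26% ± 0.0721 in lung, 2.73% ± 0.0756 in kidney, 1.24% ± 0.0992 in spleen and 0.933% ± 0.0564 in thymus. A larger share in liver follows from how these genes were called, so only its size is described. Median-of-ratios scaling gave 1233 liver-high genes of 16582 tested, among them all 750, and 308 liver-low genes, all among the 1563. Counts of listed genes given below are to be read against the counts of all genes under the same scaling. Leaving out 1 library at a time gave 743 to 754 liver-high and 1473 to 1649 liver-low genes.

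Genes of proteins secreted into plasma were among the most abundant in liver. Of the 14 carrier proteins listed, 14 were liver-high, with a median difference of 7.64 against lung, 7.88 against kidney, 8.96 against spleen and 9.23 against thymus. Alb (ENSMUSG00000029368.10, chr5:90460897-90476602, plus strand, in GENCODE M21 on GRCm38) had 71001, 96416, 52252 and 83140.1 CPM in liver replicates 1 to 4. The lung libraries had 3.84, 1.68, 2.42 and 1.72 CPM, the kidney libraries 13.99, 13.3, 8.84 and 15.6, the spleen libraries 84.1, 21.1, 1.63 and 6.49 and the thymus libraries 1.17, 0.608, 0.167 and 1.87. The lowest liver library was far above the highest other library, and the smallest of the 4 differences was 12.38, against spleen (adjusted p = 1.93e-12). Ttr, transthyretin, which carries thyroid hormone, had 3375, 3995, 2742 and 3593 CPM in liver, and its highest values elsewhere were in kidney (7.34 to 26.9 CPM). Trf, transferrin, the iron carrier, had 26370.4, 23937, 22356 and 19279 CPM in liver against 34.6 to 353 in the others, and Hpx, hemopexin, which binds free heme, had 9678, 6035, 8975 and 5539 against 0.0562 to 5.76. Neither overlapped, although the liver libraries themselves varied more for Hpx than for Trf. Per kilobase of merged exons, mean levels in liver were 32324 CPM for Alb, 8343 for Apoe, 6923 for Trf, 5222 for Apoa2 and 5041 for Hpx.

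Lipoprotein, clotting and complement genes were mostly liver-high as well. Of 17 apolipoproteins and assembly genes, 16 were liver-high. Apoa1, the main protein of HDL, had 6639, 6853, 4595 and 6624 CPM in liver against 0.0511 to 11.2 in the 16 others, with a smallest difference of 11.05 (adjusted p = 2.79e-14). Apoe, which directs lipoproteins to their receptors, had 18334, 18696, 15902 and 18415 CPM in liver against 539 to 1346 CPM in the others, which did not overlap. The exception was Pltp, which transfers phospholipid between lipoproteins, with 102, 153, 107 and 131 CPM in liver, 523, 506, 575 and 535 in lung and 139, 110.3, 156 and 107 in thymus. It was lower in liver than in lung, by a difference of -2.13 ± 0.16 (SE), and did not pass against thymus (-0.06 ± 0.16 (SE)). Median-of-ratios scaling moved its difference from lung to -1.14 and that from thymus to 1.11, a call with liver the higher.

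Among 21 clotting and fibrinolysis genes 19 were liver-high. Fga, a chain of fibrinogen, had 9955, 6060.5, 5536 and 7009 CPM in liver and at most 52.4 CPM in another library. Fgb, another chain, had 7162, 4635, 3921 and 5264 CPM in liver and at most 11.2 CPM elsewhere, both maxima being in kidney. Serpinc1, antithrombin, varied little between liver libraries, with 2089, 2257, 2282 and 2342 CPM in liver and a smallest difference of 6.84 (adjusted p = 1.09e-18). F5, a cofactor of thrombin formation, had 453, 544, 509 and 541 CPM in liver against 1.004 to 25.8 elsewhere. F13b, the carrier subunit of factor XIII, and Pros1, the protein C cofactor, were the 2 that did not pass. Pros1 had 86.2, 81.2, 84.3 and 73.9 CPM in liver and 133, 145, 128 and 137 in lung, a difference of -0.73 ± 0.16 (SE) that turned to 0.25 with median-of-ratios scaling. F13b had 189.6, 233, 201 and 230.2 CPM in liver and 190.1, 190.4, 189 and 205 in kidney, overlapping, with a difference of 0.14 ± 0.14 (SE) and a 95% interval of -0.15 to 0.43. In lung, spleen and thymus it was at or under 0.608 CPM. Of 6 clotting genes known from endothelium or other cells, such as Vwf and Thbd, 1 was higher and 4 lower in liver than in lung (9.52% and 44.2% of all genes). Against kidney 1 was higher and 2 lower (8.66% and 28.0%), against spleen 1 and 4 (12.2% and 43.6%), and against thymus 1 and 1 (13.9% and 46.5%). Thbd, thrombomodulin, had 4.27, 4.68, 7.54 and 6.54 CPM in liver and 1055, 1067, 1238 and 997 in lung.

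Of 25 complement genes 17 were liver-high, and 19 with median-of-ratios scaling. C3, on which all complement routes meet, had 18754, 15526, 18970.2 and 17331 CPM in liver, against 831 to 1252 in lung, 57.9 to 228 in kidney, 635 to 1086 in spleen and 357 to 647 in thymus. Hc, complement C5, had 1117, 1113, 959 and 1050.5 CPM in liver and 529, 698, 507 and 667 in lung, but at most 1.60 CPM in kidney, spleen and thymus. Its difference from lung was 0.83 ± 0.14 (SE), under the threshold of 1, and 1.82 with median-of-ratios scaling. C7, the next component of the terminal complex to act after C6, went the other way, with 0.624, 0.813, 0.584 and 1.56 CPM in liver and 222, 281, 229 and 297 in lung.

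**Figure D2:**
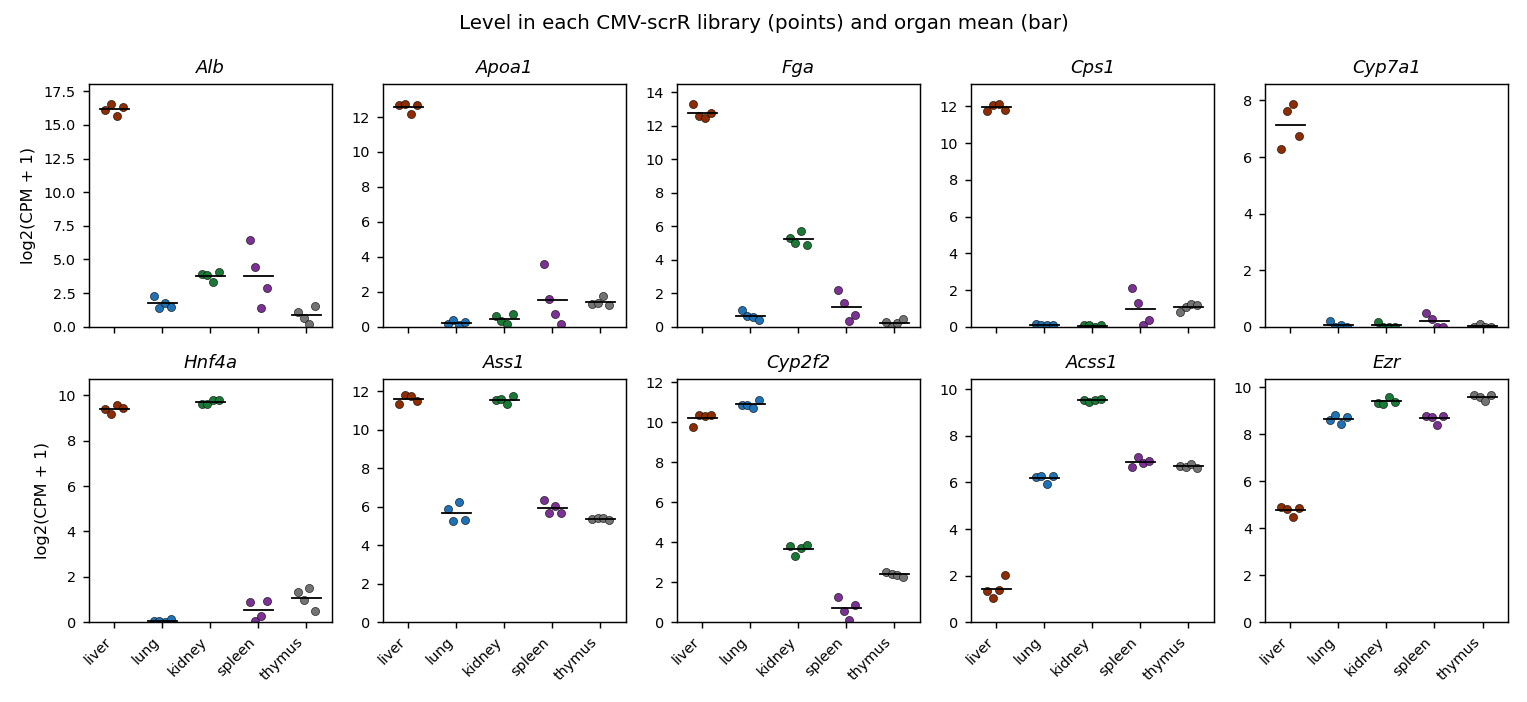
Level of 10 genes on the log2(CPM + 1) axis in each of the 20 libraries, with organs on the x axis, points for libraries and bars for the mean of 4. Alb, Apoa1, Fga, Cps1 and Cyp7a1 were high in liver alone, and Ass1 overlapped between liver and kidney. Under this scaling Hnf4a lay higher in every kidney library and Cyp2f2 in every lung library than in liver, by under 1 log2 unit of the means. Acss1 and Ezr were lowest in liver.

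All 7 urea cycle genes were higher in liver than in lung, spleen and thymus, and 4 of them higher than in kidney. Cps1, which makes carbamoyl phosphate from ammonia, had 3452, 4395, 4479.6 and 3605 CPM in liver and at most 3.37 CPM elsewhere. Otc, the second step, had 235, 289, 239.8 and 266 CPM in liver, was listed at 0 in every kidney and thymus library, and reached at most 0.937 CPM in lung. Arg1, which releases urea, had 962, 1162, 1302 and 875 CPM in liver against 0.166 to 2.98 elsewhere. Together with Nags, the maker of the activator of Cps1, these were the 4 liver-high genes. Ass1, which joins citrulline and aspartate, had 2573, 3605, 3441 and 2919 CPM in liver and 2993, 3134, 2604 and 3513 in kidney, with overlapping libraries and a difference of 0.03 ± 0.18 (SE) (95% interval -0.35 to 0.41, limma). Against lung the Ass1 difference was 5.93 ± 0.18 (SE). Asl, the next enzyme, had 303, 452, 505 and 351 CPM in liver and 287, 259.9, 298 and 305 in kidney, and its difference of 0.46 ± 0.12 (SE) was under 1. With median-of-ratios scaling it was 1.21, a call, and 6 of the 7 genes were liver-high.

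Amino acid breakdown was liver-high in 15 of 22 genes (19 with median-of-ratios scaling), and all 22 were higher than in lung, spleen and thymus. Tat, which starts tyrosine breakdown, had 936, 1551, 2182 and 1165 CPM in liver against at most 3.28 CPM elsewhere. Hpd, the following step, had 1431, 1524, 1489 and 1391 CPM in liver and 205, 163, 137 and 155 in kidney, a difference of 3.15 ± 0.21 (SE). Bhmt, which makes methionine from homocysteine with betaine, had 3666, 4869, 6362 and 4454 CPM in liver and 32.3 to 52.4 in kidney.

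For glucose, 4 of 18 genes were liver-high and 2 liver-low, where 4.48% and 9.33% of all genes were. The 2 liver-low genes were thus a share close to that of all genes. The median difference of the list from kidney was -0.31. Hk1 and Pkm, the hexokinase and pyruvate kinase of most other tissues, were liver-low. Hk1 had 15.1, 12.4, 20.9 and 18.7 CPM in liver against 132 to 355 elsewhere, and Pkm 99.1, 80.01, 131 and 90.3 CPM in liver against 448 to 702 elsewhere. G6pc, which releases free glucose, had 80.1, 456, 253 and 383 CPM in liver and 769, 903, 766 and 1082 in kidney, a difference of -1.83 ± 0.35 (SE) (adjusted p = 7.92e-05). Pck1, the committed step of gluconeogenesis, had 1568, 2074, 2257 and 1367 CPM in liver and 2239.8, 2396, 3744 and 2649 in kidney, and its difference of -0.60 ± 0.40 (SE) did not pass and turned to 0.15 with median-of-ratios scaling. Both were at most 5.08 CPM in lung, spleen and thymus. Slc2a2, the glucose transporter of both organs, had 202, 275, 273 and 256 CPM in liver and 279, 261, 252 and 235 in kidney.

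Across all genes tested, 367 (2.19%) were higher in liver than in lung, spleen and thymus and lay within 1 log2 unit of kidney. The same count was 90 with lung in the place of kidney, 33 with spleen and 30 with thymus. These counts use the total without mt- genes and were not repeated under another scaling, which can move a gene in or out of the set. Besides Ass1 and Pck1, the most abundant genes of the kidney set included Glul, Igfbp4, Sord, Fbp1 and Cyp2d26. Glul, glutamine synthetase, had 1226, 1131, 1429 and 1335 CPM in liver, 878, 1160.0, 1074 and 1188 in kidney and 316, 287, 379.8 and 289 in lung. The Glul difference from kidney was 0.26 ± 0.11 (SE) here, turned to -0.25 with quantile normalization and was 1.01 with median-of-ratios scaling. Cyp2f2, a cytochrome P450 of club cells and periportal hepatocytes, led the set shared with lung, with 863, 1294, 1261 and 1305 CPM in liver and 1829, 1854, 1670.0 and 2230.1 in lung, against 0.0732 to 13.5 in the other 3 organs. The liver libraries lay below the lung libraries, by a difference of -0.69 ± 0.19 (SE) that turned to 0.30 with median-of-ratios scaling. Srebf1, which switches on fat synthesis, and Krt18, a keratin, were shared with thymus. Srebf1 had 297, 299, 389 and 418 CPM in liver and 221, 209, 214 and 235 in thymus, and Krt18 had 287, 165, 206 and 196 CPM in liver and 264, 232, 268 and 214 in thymus. Their differences from thymus were 0.66 ± 0.13 (SE) and -0.22 ± 0.24 (SE), and 1.83 and 0.95 with median-of-ratios scaling, under which Srebf1 was called.

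Most genes of bile acid, drug and steroid metabolism were liver-high. Of 18 bile acid genes 15 were liver-high, and all 18 were higher than in lung, spleen and thymus. Cyp7a1, the rate-limiting enzyme of bile acid synthesis, had 77.6, 198, 233 and 107 CPM in liver and at most 0.414 CPM in any other library. Abcb11, the bile salt export pump, had 607, 787, 661 and 744 CPM in liver against 0 to 1.70 elsewhere, and Slc10a1, which takes bile salts back up from blood, 486, 581, 566 and 597 in liver against 0.249 to 0.928 elsewhere. Nr1h4, the bile acid receptor FXR, was among the 3 that did not pass, with 101, 108, 106 and 106 CPM in liver and 83.3, 75.8, 80.8 and 87.4 in kidney. Its difference of 0.36 ± 0.16 (SE) from kidney became 1.11, and a call, with median-of-ratios scaling. Of 27 genes of P450 families 1 to 3 and their reductase, 18 were liver-high. Cyp2e1, which oxidizes ethanol and small solvents, had 2865, 2981, 2652 and 3329 CPM in liver and 74.3 to 109 in kidney. Cyp3a11, a main drug-metabolizing form in mouse, had 2005, 2496, 1964 and 2291 CPM in liver against 0 to 2.996 elsewhere, and Cyp1a2, which handles caffeine, 517, 748, 816 and 626 in liver against 0 to 0.883 elsewhere. Cyp1b1, a form found outside hepatocytes, was the 1 liver-low member, with 3.40, 1.57, 0.894 and 2.13 CPM in liver against 8.44 to 65.2 elsewhere (difference nearest to 0 -1.93, adjusted p = 4.48e-06), a call lost with quantile normalization (-0.80). Of 30 conjugation and detoxification genes, 21 were liver-high (26 with median-of-ratios scaling). Against kidney 2 of them were lower in liver, where 28.0% of all genes were. Reads of near-identical genes, such as the Mup, Serpina1, Serpina3, Cyp3a, Saa, Ugt1a and globin families, may have been split between copies, so their single values are uncertain.

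**Figure D3:**
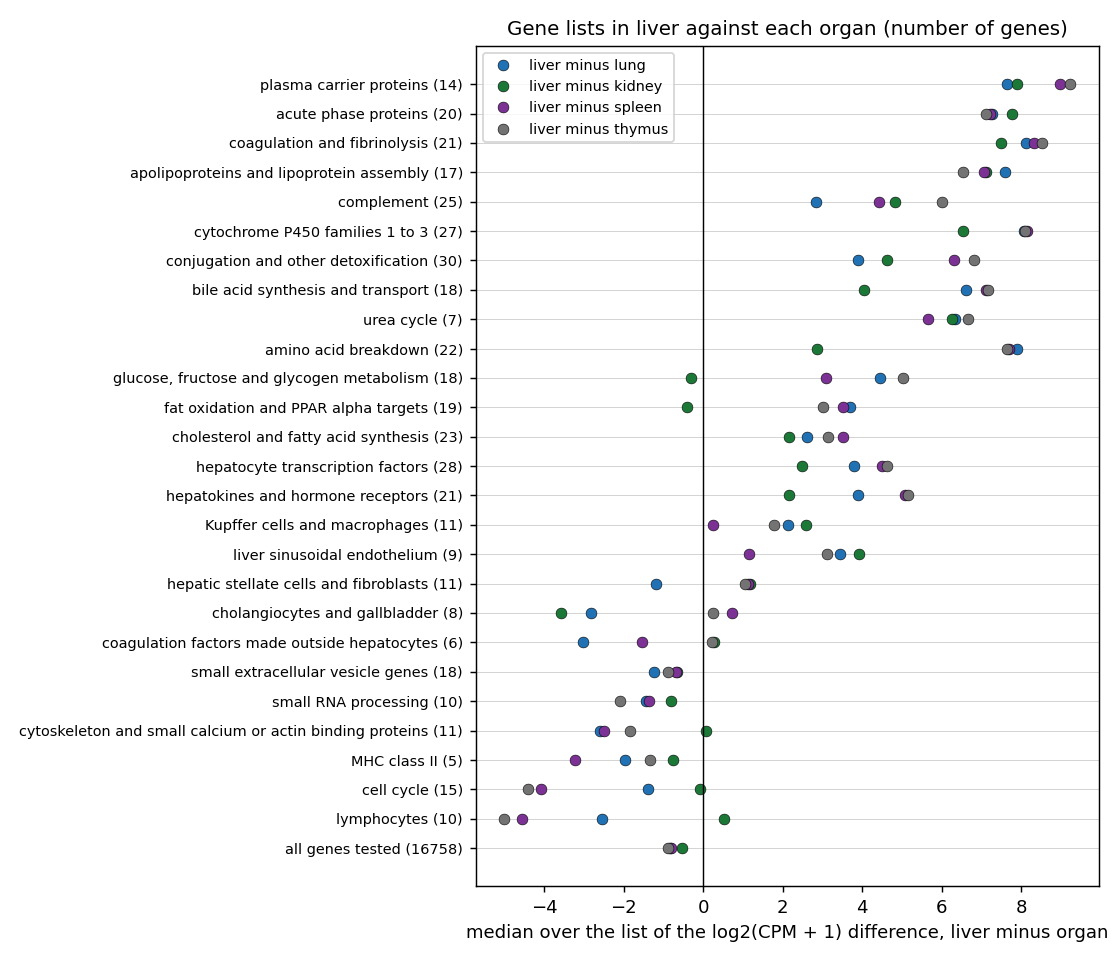
Median over each gene list of the difference on the log2(CPM + 1) scale, liver minus organ, on the x axis, with lists down the page, their number of genes in brackets and 1 point per organ. The medians of plasma carriers ran from 7.64 (lung) to 9.23 (thymus), the kidney points of glucose metabolism and fat oxidation lay near 0 (-0.31 and -0.42), and the bottom row shows all genes tested.

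Genes of fat and cholesterol synthesis were mostly liver-high, and those of fat oxidation lay nearer to kidney. Of 23 genes of cholesterol and fatty acid synthesis, 17 were liver-high, and 21 with median-of-ratios scaling. Scd1, which desaturates fatty acids, had 9951, 9673, 11847 and 11485 CPM in liver and 1596, 1816, 1478 and 2141 in lung. Fasn, fatty acid synthase, had 1437, 1359, 2239 and 1983 CPM in liver and 532, 676, 512 and 723 in lung, a difference of 1.505 ± 0.21 (SE) that was 0.92, and no call, with quantile normalization. Hmgcs1, of cholesterol synthesis, had 1191, 1037, 1041 and 1497 CPM in liver and 277, 378, 349 and 397 in kidney. Of 19 genes of fat oxidation, 4 were liver-high, and 7 with median-of-ratios scaling. In this list 19 were higher in liver than in thymus, and against kidney 4 were higher and 4 lower, where 8.66% of all genes were higher and 28.0% lower. Cpt1a, which admits fatty acids into mitochondria, had 297, 300.2, 346 and 319 CPM in liver and 600.2, 503, 578 and 574 in kidney, a difference of -0.83 ± 0.10 (SE) that was -1.46 in the CMV-siRE and -1.36 in the CMV-GE11-siRE libraries, both calls. Ppara, the receptor that switches on fat oxidation, had 61.4, 70.7, 80.4 and 104 CPM in liver and 60.7, 51.7, 55.9 and 54.9 in kidney, and its difference of 0.47 ± 0.22 (SE) did not pass, though it was 1.22 with median-of-ratios scaling.

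Of 28 hepatocyte transcription factors 15 were liver-high (18 with median-of-ratios scaling, 12 in the CMV-siRE libraries and 13 in the CMV-GE11-siRE libraries). Against kidney 3 of them were lower in liver, where 28.0% of all genes were. Hnf4a, needed for much of the hepatocyte programme, had 664, 570.5, 757 and 694 CPM in liver and 771, 773, 894 and 891 in kidney, with at most 1.84 CPM in the other 3 organs and a difference from kidney of -0.31 ± 0.20 (SE) (95% interval -0.73 to 0.10). That difference turned to 0.44 with median-of-ratios scaling. Cebpa had 432, 347, 405 and 447 CPM in liver against 165, 163, 137 and 166 in lung, its next organ. Nr1i3, the drug sensor CAR, and Foxa3 were close to liver alone, Nr1i3 with 145, 207, 192 and 183 CPM in liver against 0.0465 to 2.06 elsewhere, and Foxa3 with 55.3, 54.8, 48.97 and 47.8 in liver against 0.0529 to 1.03 elsewhere.

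Of 21 secreted hormones and hormone receptors, 12 were liver-high, and 18 with median-of-ratios scaling. Igf1, the growth factor released under growth hormone, had 294, 394, 305 and 354 CPM in liver against 3.03 to 37.5 elsewhere. Fgf21, known as a fasting hormone of liver, was low there, at 0.258, 0.405, 0.423 and 0.413 CPM, and higher in thymus at 2.47, 5.07, 3.68 and 2.69 CPM, a difference of -1.67 ± 0.14 (SE) (adjusted p = 3.97e-10). Of 12 iron handling genes 6 were liver-high. Hamp, hepcidin, which limits iron release, had 379, 180.5, 175 and 117 CPM in liver, was listed at 0 in every kidney library and reached at most 1.13 CPM in another organ. Tfr2, which senses iron-loaded transferrin, had 619, 555, 565 and 574 CPM in liver against 41.1, 57.7, 67.4 and 41.8 in spleen. Tfrc, the ordinary transferrin receptor, had 22.9, 26.1, 45.1 and 34.02 CPM in liver against 46.8 to 536 elsewhere, but was not liver-low. Its difference from lung turned to 0.12 with median-of-ratios scaling. Its call against thymus was lost with that scaling (-0.62) and quantile normalization (-0.91). The calls against kidney and thymus were lost in the CMV-siRE (-0.91 and -0.78) and CMV-GE11-siRE libraries (-1.15, adjusted p = 0.0548, and -0.82).

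Genes known from other cell types of the liver were also read, and many of them were as high or higher in another organ. Of 11 Kupffer cell and macrophage genes, 4 were liver-high (4.48% of all genes), and 7 with median-of-ratios scaling. Clec4f, a lectin of mouse Kupffer cells, had 224, 274, 246 and 261 CPM in liver against 0 to 0.602 elsewhere. Timd4, of resident macrophages, had 25.7, 28.4, 57.05 and 29.95 CPM in liver and 17.7, 27.5, 29.7 and 35.9 in spleen, with a difference of 0.31 ± 0.29 (SE). That difference was 1.34 with median-of-ratios scaling and 1.06 with quantile normalization, both calls with liver the higher, but -1.44 in the CMV-siRE libraries and -1.06 in the CMV-GE11-siRE libraries, both calls with spleen the higher. Of 9 sinusoidal endothelial genes 3 were liver-high (5 with median-of-ratios scaling), among them Clec4g with 56.0, 57.5, 61.6 and 58.8 CPM in liver against 0 to 11.9 elsewhere. Stab2, a scavenger receptor of sinusoids, had 79.9, 112, 117 and 134 CPM in liver and 80.6, 102, 149.9 and 119.5 in spleen, a difference of -0.02 ± 0.30 (SE) that became 1.03, and a call, with median-of-ratios scaling. Of 11 stellate cell and fibroblast genes 2 were liver-high, among them Colec11 with 37.8, 41.9, 32.4 and 50.2 CPM in liver against 0.103 to 1.23 elsewhere. Against lung 3 of the 11 were higher and 6 lower (9.52% and 44.2% of all genes), and their sums were 518 to 825 CPM in liver and 1703 to 2727 in lung. Against kidney 7 were higher and 0 lower (8.66% and 28.0%), against spleen 6 and 2 (12.2% and 43.6%), and against thymus 6 and 0 (13.9% and 46.5%). Of 8 cholangiocyte genes 0 were liver-high, and their sums were 82.4 to 231 CPM in liver and 2639 to 3190 in kidney. Against lung 2 of the 8 were higher and 6 lower in liver, where 9.52% of all genes were higher and 44.2% lower. Against kidney 2 were higher and 6 lower (8.66% and 28.0% of all genes), against spleen 2 and 1 (12.2% and 43.6%), and against thymus 1 and 3 (13.9% and 46.5%). Krt19, of bile ducts, had 5.39, 3.71, 2.38 and 6.54 CPM in liver against 118, 132, 90.1 and 151 in lung. The 5 red cell genes summed to 219.8 to 373 CPM in liver against 43171 to 58310.2 in spleen and 37.1 to 98.5 in thymus. The 10 lymphocyte genes summed to 95.96 to 118 CPM in liver against 3011 to 4195 in spleen. Of the 15 cell cycle genes, 15 were lower in liver than in spleen, 15 lower than in thymus and 13 lower than in lung, where 43.6%, 46.5% and 44.2% of all genes were lower. None passed against kidney in either direction, and their median difference from kidney was -0.08.

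Liver-low genes numbered 1563, a count that fell to 308 with median-of-ratios scaling. Those with the largest differences were Acss1, Npnt, Limch1, Myh11, Ezr, Snn, Emb, Trib2, Ppp1r16b, Rgcc, Cd24a, Kbtbd11, Far1, Sfrp1 and Clic5. Acss1, the mitochondrial enzyme that turns acetate into acetyl-CoA, had 1.57, 1.05, 1.60 and 3.04 CPM in liver. The lung libraries had 74.7, 75.8, 60.8 and 75.8 CPM, the kidney libraries 749, 691, 742 and 775, the spleen libraries 99.5, 133, 115 and 121 and the thymus libraries 103, 101, 109 and 97.6. Its difference nearest to 0 was -4.73 (adjusted p = 1.73e-16), and -3.91 with quantile normalization. Ezr, ezrin, which ties actin to the membrane, had 29.2, 26.9, 21.7 and 28.1 CPM in liver against 337 to 828 elsewhere. Myh11, the smooth muscle myosin, had 2.43, 1.26, 1.60 and 1.79 CPM in liver against 37.04 to 131 elsewhere, and Cd24a, a surface protein of many epithelial and lymphoid cells, 12.8, 7.51, 6.99 and 16.02 in liver against 102 to 1155 elsewhere. These 4 did not overlap and were also called with the whole total, median-of-ratios scaling and quantile normalization. Actg1, cytoplasmic actin, was liver-low as well, with 359, 231, 391 and 311 CPM in liver against 1193 to 2022 elsewhere and a difference nearest to 0 of -2.06, which median-of-ratios scaling moved to -0.88, outside the call. Against single organs the largest deficits were led by Sftpc (lung, -13.21), Slc34a1 (kidney, -13.05), Slc4a1, the anion exchanger of red cells (spleen, -10.27), and Rag1 (thymus, -11.82).

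The circuits of this series were made to have the liver produce small RNAs that leave in extracellular vesicles and act on EGFR, so the genes of those steps were read in control liver. Mouse Egfr, the endogenous receptor gene, was liver-high, with 225, 263, 259 and 299.5 CPM in liver. The lung libraries had 31.4, 32.5, 36.2 and 28.3 CPM, the kidney libraries 70.02, 75.3, 78.9 and 77.9, the spleen libraries 4.62, 3.19, 11.8 and 5.14 and the thymus libraries 17.6, 28.97, 25.9 and 17.8. By mean the order was liver, kidney, lung, thymus and spleen, and among these neighbours only lung and thymus had overlapping libraries. The differences ran from 1.77 ± 0.23 (SE) against kidney to 5.32 ± 0.23 (SE) against spleen (adjusted p over the 4 = 1.5e-06). The human EGFR transgene was not analysed here. Erbb3, which pairs with other receptors of the family, had 237, 220.0, 179.6 and 213 CPM in liver and 135, 148, 138 and 158 in kidney, a difference of 0.55 ± 0.12 (SE) with no overlap, and 1.30 with median-of-ratios scaling. Under that scaling it was called against kidney and was liver-high beside Egfr. Erbb2 was low in liver, with 3.898, 2.22, 3.58 and 5.65 CPM against 66.4, 74.9, 57.8 and 65.6 in lung and 166, 158, 168 and 161 in kidney. Its differences from spleen (-0.74 ± 0.17 (SE)) and thymus (-0.98 ± 0.17 (SE)) stayed under 1 in size, and their sign turned with median-of-ratios scaling. The thymus difference passed the threshold without liver replicate 4 (-1.14) or thymus replicate 4 (-1.07), and in the CMV-siRE (-1.04) and CMV-GE11-siRE libraries (-1.12). Errfi1, the feedback inhibitor of EGFR, had 863, 403, 837 and 456 CPM in liver and 673, 439.8, 585 and 449.9 in kidney. Of 5 EGFR ligands that passed the filter on low values, of 7 listed, 1 was higher and 3 lower in liver than in kidney (8.66% and 28.0% of all genes). Against lung 0 were higher and 2 lower (9.52% and 44.2%), against spleen 2 and 0 (12.2% and 43.6%), and against thymus 2 and 1 (13.9% and 46.5%). Egf itself had 1.82, 0.692, 0.978 and 1.14 CPM in liver against 3025, 3386, 3035 and 3022 in kidney.

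Of 8 receptors of uptake from blood, 4 were liver-high, where 4.48% of all genes were. The number was 6 with median-of-ratios scaling, and 3 with quantile normalization or in the libraries of either other circuit. Asgr1, a subunit of the asialoglycoprotein receptor used to direct small RNAs to hepatocytes, had 341, 334, 286 and 284 CPM in liver against 0 to 1.79 elsewhere. Lrp1 had 2281, 1897, 1627 and 1836 CPM in liver against 676, 711, 883 and 787 in lung. Its smallest difference, 1.32, was 0.65 with quantile normalization, 0.96 in the CMV-siRE libraries and 0.91 in the CMV-GE11-siRE libraries, each outside the call. Cd36, which takes up fatty acids, was lower than in lung, with 108, 83.6, 121 and 94.5 CPM in liver against 997, 969, 926 and 961 in lung.

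Of 10 small RNA processing genes 2 were liver-low, where 9.33% of all genes were. Lower in liver were 8 against lung (44.2% of all genes), 2 against kidney (28.0%), 8 against spleen (43.6%) and 8 against thymus (46.5%). Drosha, which cuts the primary transcript, had 14.6, 16.2, 19.6 and 18.99 CPM in liver against 56.1 to 94.1 elsewhere, and Ago2, which holds the guide strand and cuts its target, 30.3, 33.9, 42.8 and 36.3 in liver against 102 to 443 elsewhere. Their differences nearest to 0 were -1.81 and -1.73, and -0.80 and -0.75 with median-of-ratios scaling, under which neither was called. Dicer1, which cuts the hairpin, had 39.6, 39.04, 38.2 and 38.7 CPM in liver, with differences of -1.05 ± 0.11 (SE) against lung (-0.99, and no call, without lung replicate 1), -0.61 ± 0.11 (SE) against kidney, -1.29 ± 0.11 (SE) against spleen and -2.17 ± 0.11 (SE) against thymus. With median-of-ratios scaling the thymus difference was -1.01 and the other 3 lay between -0.25 and 0.13. Of 18 small extracellular vesicle genes 3 were liver-low, where 9.33% of all genes were. With median-of-ratios scaling 2 of them were, where 308 of all 16582 genes tested were. Rab27a, which docks vesicle bodies at the membrane, had 5.08, 5.45, 7.02 and 4.25 CPM in liver against 40.6 to 103 elsewhere, and Cd63, a vesicle tetraspanin, 11.5, 9.54, 5.38 and 15.4 in liver against 47.05 to 981 elsewhere. Both were also called with median-of-ratios scaling and with quantile normalization. Vps4a, which ends the budding step, had 19.02, 19.8, 25.01 and 24.1 CPM in liver against 43.4 to 66.9 elsewhere, and its call was lost under both, at -0.08 and -0.34. Lamp2, a lysosome and vesicle membrane protein, had 553, 612, 650.1 and 598 CPM in liver, between 887 to 913 in kidney and 311 to 336 in lung.

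**Figure D4:**
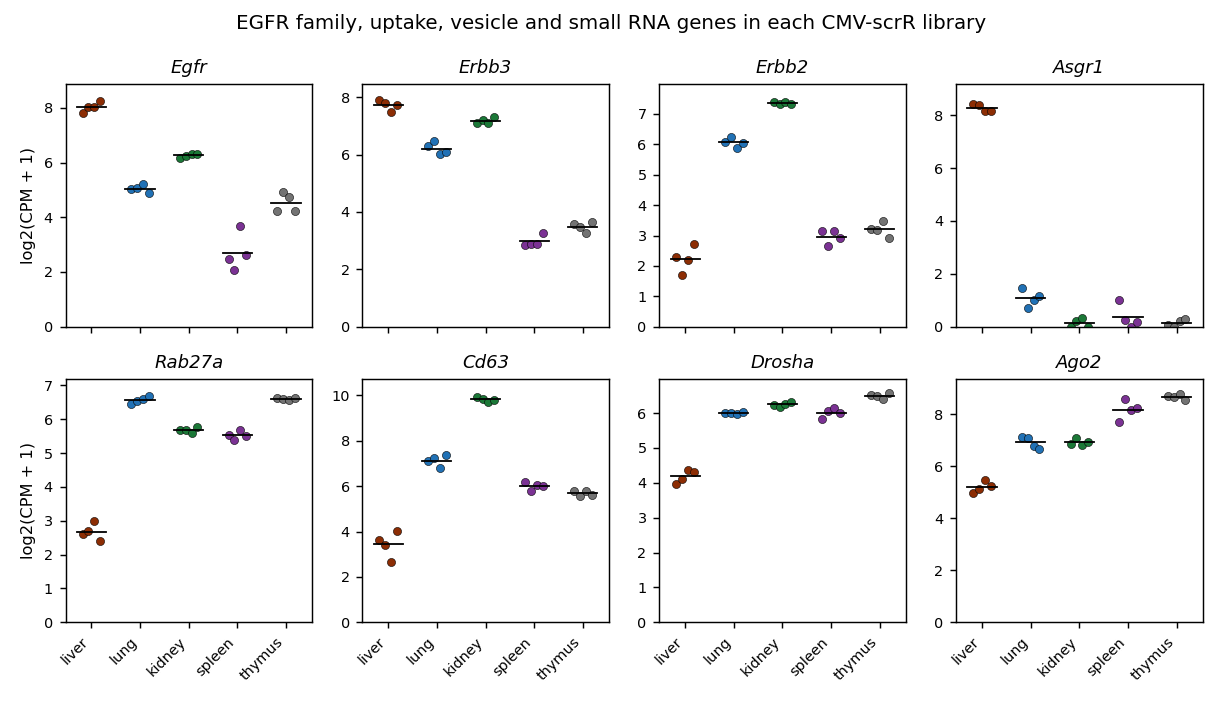
Level of 8 genes of the EGFR family, uptake, vesicles and small RNA processing on the log2(CPM + 1) axis in each of the 20 libraries, with organs on the x axis, points for libraries and bars for the mean of 4. Egfr and Asgr1 were highest in liver, Erbb3 lay within 1 log2 unit of kidney here (1.30 apart with median-of-ratios scaling), and Rab27a, Cd63, Drosha and Ago2 were lowest in liver under this scaling.

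Acute phase genes were among those that differed most between the 4 liver libraries. The SD of log2 values over them had a median of 0.17 and a 95th percentile of 0.46 over the 8683 genes with a liver mean of at least 10 CPM. The 12 genes with the largest SD were Saa2, Saa1, Orm2, Mt2, Marco, Lcn2, Cxcl1, Cyp3a16, Tsku, Slfn4, Steap4 and G6pc, chosen for that spread and so given as a description. Saa1, serum amyloid A, had 759, 77.9, 865 and 102 CPM (SD 1.84) and Saa2 781, 66.6, 794 and 83.5. Orm2, an orosomucoid, had 507, 77.3, 612 and 71.1, and Lcn2, lipocalin 2, which binds bacterial siderophores, 627, 134, 599 and 98.9. Replicates 1 and 3 were the high ones in each of these 4. Of 20 acute phase genes 18 were liver-high, these 4 among them, and 20 with median-of-ratios scaling, with quantile normalization and in the libraries of either other circuit. Of the 4, Lcn2 had the smallest margin, 1.80 (adjusted p = 0.00124), against lung at 72.2, 82.9, 60.7 and 89.1 CPM. Hp, haptoglobin, showed the same libraries high with a smaller range, 8347, 4061, 7303 and 3608 CPM. Mt2, a metallothionein, had 184, 75.2, 85.3 and 11.02 CPM and was not called against spleen (35.1, 26.6, 40.7 and 19.4 CPM), a difference of 1.03 ± 0.51 (SE) that did not pass (adjusted p = 0.0673). It was called without liver replicate 4 (1.81), with median-of-ratios scaling (2.06), with quantile normalization (1.63), in the CMV-siRE (3.55) and CMV-GE11-siRE libraries (3.40) and with the replicate number as a block (1.03, adjusted p = 0.0300).

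For some genes the same replicate numbers were high in other organs. Cebpb, a factor of the acute phase response, had 35.6, 13.5, 30.9 and 18.3 CPM in liver, 55.6, 20.6, 44.03 and 26.4 in lung and 28.7, 10.3, 23.9 and 11.5 in spleen, with replicates 1 and 3 the high ones in each. Per1, a clock gene that also responds to glucocorticoid, had 22.9, 8.42, 42.9 and 11.6 CPM in liver and 112, 66.3, 162 and 92.1 in lung, again highest in replicates 1 and 3. It was liver-low with a difference nearest to 0 of -1.29 (adjusted p = 0.00328), a call lost without liver replicate 2 (-0.95), with median-of-ratios scaling (-0.57), with quantile normalization (-0.66) and in the CMV-GE11-siRE libraries (-1.11, adjusted p = 0.0901). Errfi1, given above, was likewise higher in replicates 1 and 3 in liver and kidney. Other genes varied in another order. G6pc had its lowest value in replicate 1, at 80.1 CPM against 253 to 456 in the other 3. Hamp was highest in replicate 1 and Mt2 lowest in replicate 4.

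**Figure D5:**
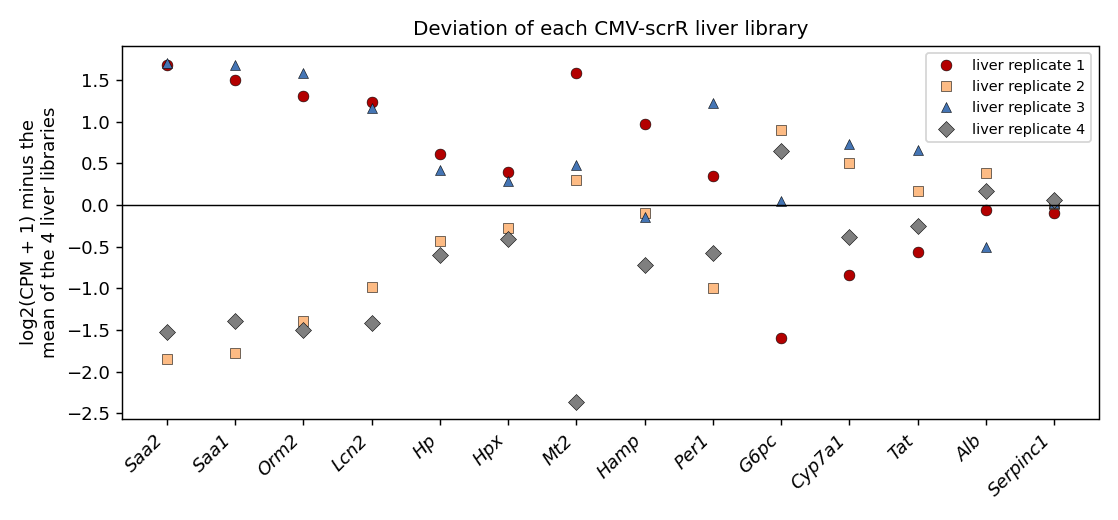
Deviation of each of the 4 liver libraries from their mean on the log2(CPM + 1) scale (y axis) for 14 genes (x axis), 1 symbol per library. Replicates 1 and 3 lay above replicates 2 and 4 for Saa2, Saa1, Orm2, Lcn2, Hp, Hpx and Per1, and the 4 libraries lay together for Serpinc1 (SD 0.07).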

How the data were processed

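Total RNA was extracted with TRIzol and made into TruSeq RNA libraries from 1 µg, per the labels' protocols. The authors deposited 1 table per organ of signal values, which were judged from the deposited values to be estimated gene counts divided by 1 size factor per library, with each organ scaled on its own. DESeq2 is named in the submitters' processing notes without role or version. Aligner, counter, build: not given in the sources used here. Between 55.2% and 72.2% of low values were whole multiples (within 0.1) of a library's step, so reads were not recovered and no counting interval is given.

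Each of the 36047 genes per table matched a GENCODE M21 identifier with its version. Columns were rescaled to CPM without mt- genes, and genes with at least 1 CPM in at least 4 of 20 libraries were kept. limma 3.58.1 (limma-trend, R 4.3.3) fitted 5 organ means to log2(CPM + 1), and was tested on simulated data. The members and the gene lists were chosen with earlier results of these data known. Named genes were drawn from the liver-high genes without overlap with the highest liver mean or the largest smallest difference, the liver-low genes without overlap and farthest from 0, the 5 largest differences each way against an organ, the most abundant genes shared with 1 organ, the 12 genes with the largest spread at 10 CPM or more, and list members. Predicted and clone names were left out. Xist and Hgs are not analysed here, and some genes that the rule names are not reported here. Alternatives were other scalings, a pseudocount of 0.1, a threshold of 2, no filter, 8-library fits, the other circuits and leaving out each library.

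Same-numbered liver and lung libraries deviated together (r of deviations from organ means across genes, 0.12 to 0.19), as did liver and kidney (0.13 to 0.21), over 0.1 in every pair. The numbers were therefore taken to pair these organs, from the data and not from the labels, and the fit with the replicate number as a block is given with the alternatives.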

Additional observations from a re-analysis of the deposited data

Results flagged for a closer look

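In 387 groups of 4 libraries, 1 group for each of the 105 genes looked at in each organ where the gene averaged at least 1 CPM, 24 groups (6.20%) had a library far from the other 3, by a gap above Dixon's 95% critical share of the group's range. Chance flags about 1 in 20.

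In liver, replicate 3 was apart for Apoe (15902 CPM against 18334 to 18696) and Apoa1 (4595 against 6624 to 6853), and on the high side for Oat (941 against 429 to 499.8) and Timd4 (57.0 against 25.7 to 30.0). Liver replicate 1 was apart for Cyp2f2 (863 against 1261 to 1305).

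In lung, replicate 1 was apart for Rag1 (69.2 against 1.29 to 7.66) and Pdia4, a chaperone of the secretory pathway (126 against 146 to 149). Lung replicate 3 was apart for Cebpa (137 against 163 to 166), Acss1 (60.8 against 74.7 to 75.8) and Mt2 (4.60 against 2.48 to 2.77), and lung replicate 2 for Hmgcs1 (92.4 against 102 to 103).

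In the other organs, F13b stood apart in kidney replicate 4 (205 against 189 to 190.4) and Bhmt in kidney replicate 1 (52.4 against 32.3 to 34.7). Kidney replicate 2 was apart for Egf (3386 against 3022 to 3035), Thbd (51.0 against 42.3 to 43.4) and Cd36 (64.2 against 17.5 to 25.3). In spleen, Pck1 stood apart in replicate 1 (5.08 against 0.203 to 0.473), as did Hal (6.49 against 0.620 to 1.54), Ezr in replicate 3 (337 against 433 to 439) and Erbb3 in replicate 4 (8.56 against 6.28 to 6.42). Thymus replicate 4 stood apart for Cyp2e1 (3.92 against 0.615 to 1.16), Krt19 (6.51 against 1.87 to 2.57), Cfd (41.8 against 0.751 to 2.84) and Pros1 (12.4 against 15.998 to 16.51).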

How the results depend on the processing

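A threshold of 2 on the log2 difference gave 478 liver-high and 168 liver-low genes, and 950 higher and 3111 lower against lung, 784 and 1698 against kidney, 1298 and 2897 against spleen, and 1400 and 3614 against thymus. Median-of-ratios scaling gave 1233 and 308, with 2973 and 3776 against lung, 2583 and 2477 against kidney, 3719 and 3377 against spleen, and 4350 and 3862 against thymus. Quantile normalization gave 1016 and 334, with 2905 and 3619, 2335 and 2568, 3079 and 4188, and 3575 and 4712 in the same order of organs. A pseudocount of 0.1 gave 2594 liver-low genes, in place of 1563. The whole column total, no filter, fits of only the 8 libraries compared, and the replicate block (752 and 1563) kept all 10 counts within 1.5 times. Leaving out 1 library gave 1582 to 1604 higher and 7320 to 7469 lower against lung, 1412 to 1484 and 4598 to 4815 against kidney, 2017 to 2078 and 7200 to 7379 against spleen, 2311 to 2370 and 7720 to 7847 against thymus, and 743 to 754 liver-high and 1473 to 1649 liver-low. The fit in the mice given CMV-siRE shared 685 of the 750 liver-high genes (91.3%, and 87.8% of its own 780) and 1052 of the 1563 liver-low genes (67.3%, and 66.5% of its own 1583), and CMV-GE11-siRE shared 695 (92.7%, and 90.1% of 771) and 1029 (65.8%, and 61.9% of 1663).

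Among 144 values of single genes, the following changed sign under an alternative, and the cause was not tested. With median-of-ratios scaling these were Cyp2f2 against lung (0.30), Erbb2 against spleen (0.14) and thymus (0.0088), Stab2 against spleen (1.03), Pltp (1.11) and Krt18 (0.95) against thymus, Pros1 (0.25), Cebpb (0.40) and Tfrc (0.12) against lung, and Dicer1 (0.13), Pck1 (0.15), Hnf4a (0.44), Lamp2 (0.18) and Slc2a2 (0.71) against kidney. Quantile normalization did so for Glul (-0.25), Ass1 (-0.41) and Slc2a2 (0.12) against kidney, Erbb2 (0.0177) and Stab2 (0.47) against spleen, Pltp (0.56) and Krt18 (0.19) against thymus and Cebpb against lung (0.31). The libraries of CMV-siRE did so for Glul (-0.12) and Slc2a2 (0.34) against kidney and for Pdia4 (-0.11), Cebpb (-0.0361) and Timd4 (-1.44) against spleen, those of CMV-GE11-siRE for Slc2a2 (0.49) and Timd4 (-1.06), and the whole column total for Slc2a2 (0.0682). Leaving out 1 library gave both signs for Ass1 against kidney (-0.0454 to 0.12), Slc2a2 against kidney (-0.0824 to 0.0649), Stab2 against spleen (-0.17 to 0.13) and Pltp against thymus (-0.16 to 0.0453), none of them called, and Tfrc against lung was called without liver replicate 3 (-1.03). The replicate block added 1 call (Mt2 against spleen, 1.03) and changed no other. Same-numbered spleen (r 0.08 to 0.18) and thymus libraries (0.03 to 0.06) were not over 0.1 with liver in every pair. That cut alone left them out of the pairing. The same-numbered pair had the highest r in 3 of 4 numbers for lung and in 4 of 4 for kidney, spleen and thymus. Whether the spleen and thymus numbers pair with liver was therefore not settled.
The median SD among the liver libraries was 0.17 with either pseudocount. Depth sets no stated limit, because the values are normalized estimates.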

Other observations

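Genes known to differ between male and female mouse liver were read in the 4 liver libraries, since the labels give no sex. Of 18 female-biased genes listed 14 were liver-high, where 4.48% of all genes were. Among them was Cyp2b9, a P450, with 219, 312, 254 and 309 CPM in liver against 0 to 0.670 elsewhere. Of 12 male-biased genes listed 7 were liver-high, among them Mup20, a major urinary protein, with 101, 81.2, 126 and 121 CPM in liver against 0 to 0.124 elsewhere. Cyp4a12a, another male-biased P450, had 0, 0.457, 0.0531 and 0.311 CPM in liver, and the Y-linked gene Ddx3y 0.0315, 0.0308, 0 and 0.0943 CPM. In liver the female-biased genes summed to 1669 to 3167 CPM, the male-biased genes to 356 to 591 and the 4 Y-linked genes to 2.08 to 4.93. The sex of the mice was not tested.

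The genes of zones were also compared. Of 12 pericentral genes 7 were liver-high, and of 13 periportal genes 7, where 4.48% of all genes were. Hal, which starts histidine breakdown in periportal cells, had 490.4, 694, 411 and 572 CPM in liver against 0.333 to 6.49 elsewhere, and Oat, a pericentral enzyme of ornithine, had 430.1, 499.8, 941 and 429 CPM in liver against 461, 463, 431 and 453 in kidney.

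Of 17 clock genes 1 was liver-high and 2 were liver-low, where 4.48% and 9.33% of all genes were. None was liver-low with median-of-ratios scaling (308 of all 16582 genes tested) or quantile normalization (334 of 16708). Nfil3, a repressor of clock output, had 42.3, 49.9, 35.7 and 42.02 CPM in liver against 3.70 to 24.1 elsewhere, and was not called in the CMV-GE11-siRE libraries. Dbp, an activator of the same output, was at 1.56, 1.62, 4.12 and 2.82 CPM in liver against 3.54 to 11.1 elsewhere, and was not called liver-low.

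Of 11 genes often used as references 1 was liver-low, a share close to the 9.33% of all genes. None was with median-of-ratios scaling (308 of all 16582 genes tested) or quantile normalization (334 of 16708). The liver-low gene was Ywhaz, with 169.6, 145, 179.7 and 168 CPM in liver against 361 to 762 elsewhere (difference nearest to 0, -1.21, and -0.46 with median-of-ratios scaling).

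Adipocyte genes were uneven between libraries of an organ. Cfd, of fat cells, had 0.0520, 0, 0 and 0 CPM in liver, 36.99, 49.0, 0 and 0 in kidney and 0.751, 2.84, 1.83 and 41.8 in thymus. The part of such cells in the comparisons was not tested.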
